A study of Mus musculus with 4 samples.

Results

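The guanylate-binding proteins (GBPs) and immunity-related GTPases (IRGs) that interferon-gamma induces were described here through 10 genes of the mouse, chosen by symbol: Gbp2, Gbp3, Gbp4, Gbp5, Gbp6, Gbp7, Gbp8, Gbp9, Irgm1 and Igtp. All 10 were found among the 26214 gene symbols with counts, and all 10 passed the filter on low counts. RNA was sequenced from the stromal vascular fraction of inguinal white fat, the cells left after adipocytes are floated off digested tissue, in 2 libraries of mice treated with MHE, a medicinal herb extract, and in 2 of mice that received phosphate-buffered saline (PBS). The protocol speaks of triplicate libraries, and 2 per treatment were analysed here. Genotype, strain, age, diet, dose and duration are not given in the labels used here, and neither is the composition of the extract. Libraries held 27161882 to 33391075 counts. Adipocyte markers, which this fraction should mostly lack, were abundant in all 4 libraries, with 8 genes summing to 11432 to 32894 CPM (counts scaled to a fixed library total with TMM factors).

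Interferon-gamma, made mainly by T cells and natural killer cells, binds its receptor and signals through the JAK kinases. Its target promoters hold gamma-activated sites (GAS), and it induces IRF1, which acts on interferon-stimulated response elements (ISRE). GBPs and IRGs are among the most strongly induced products. They gather on the vacuoles of intracellular parasites and bacteria, and in mice the IRGM proteins, Irgm1 and Igtp among them, act as regulators that keep the effector IRGs inactive on the cell's own membranes.

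The genes lie in separate clusters of the mouse genome (RefSeq on GRCm38.p6, the assembly that mm10 represents). Gbp5, Gbp7, Gbp3 and Gbp2 lie on chromosome 3 between 142496934 and 142638008, and Gbp8, Gbp9, Gbp4 and Gbp6 on chromosome 5 between 105012513 and 105295871. Irgm1 (48865245 to 48871420) and Igtp (58199556 to 58207592) lie on chromosome 11. RefSeq promoter windows, from 250 bases before to 50 bases after the gene start, were at hand for 6 of the 10: Gbp2, Gbp3, Gbp5, Gbp7, Irgm1 and Igtp. They were searched on both strands for an ISRE core (GAAANNGAAA) and for the GAS core (TTCNNNGAA). The ISRE core was found in all 6 genes, against 3.44% of 32851 windows of that length, and the GAS core in 3 (Gbp5, Gbp7 and Igtp), against 8.3% of windows. The counts are by gene, with a match in any of its windows, while the shares are by window. Gbp3 had a second window, which held neither core. A match is a description of the letters and not evidence of binding.

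The upstream 250 bases are shown for Igtp and Irgm1, which rose with the extract, for Gbp5, the chromosome 3 gene with the highest fold change among these, and for Gbp2, whose mean differed least, with motif matches in capitals. The windows are chr11:58199306-58199555 (plus strand), chr11:48871421-48871670 (minus strand), chr3:142496684-142496933 (plus strand) and chr3:142620413-142620662 (plus strand) in GRCm38.p6.
Igtp: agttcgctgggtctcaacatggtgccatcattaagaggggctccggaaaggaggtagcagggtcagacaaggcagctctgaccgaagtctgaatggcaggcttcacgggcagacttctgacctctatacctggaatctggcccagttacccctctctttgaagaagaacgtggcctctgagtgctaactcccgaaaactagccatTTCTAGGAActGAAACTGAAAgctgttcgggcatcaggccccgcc
Irgm1: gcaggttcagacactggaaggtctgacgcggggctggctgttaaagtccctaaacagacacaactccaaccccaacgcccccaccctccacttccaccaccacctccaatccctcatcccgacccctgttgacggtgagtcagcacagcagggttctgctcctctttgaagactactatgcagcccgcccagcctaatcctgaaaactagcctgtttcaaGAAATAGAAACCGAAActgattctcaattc
Gbp5: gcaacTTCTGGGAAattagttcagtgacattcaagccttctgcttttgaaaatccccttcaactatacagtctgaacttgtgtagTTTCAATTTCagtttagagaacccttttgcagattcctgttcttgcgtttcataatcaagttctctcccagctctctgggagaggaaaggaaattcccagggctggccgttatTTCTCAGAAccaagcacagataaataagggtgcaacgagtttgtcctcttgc
Gbp2: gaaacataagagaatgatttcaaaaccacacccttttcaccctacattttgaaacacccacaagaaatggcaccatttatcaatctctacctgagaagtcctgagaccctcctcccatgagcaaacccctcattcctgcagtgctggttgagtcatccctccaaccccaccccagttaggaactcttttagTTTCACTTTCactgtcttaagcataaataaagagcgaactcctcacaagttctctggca
The Igtp window holds a GAS core 45 bases before the start with an ISRE core after a gap of 2 bases. Irgm1 holds a pair of overlapping ISRE cores and no GAS core. Gbp5 holds 2 GAS cores, with its ISRE core between them. Gbp2 holds an ISRE core 59 bases before the start and no GAS core.

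The GAS-gap-ISRE arrangement of Igtp recurred in 4 of its relatives on chromosome 11, shown here since these genes lie in the same IRG family. The GAS and ISRE cores are in capitals and the 2 bases between them in lower case.
Igtp: TTCTAGGAActGAAACTGAAA
Irgm2: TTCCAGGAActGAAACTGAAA
Tgtp1: TTCCAGGAAtcGAAACTGAAA
Tgtp2: TTCCAGGAAtcGAAACCGAAA
Gm12185: TTCCAGGAAtaGAAAGTGAAA
They lie at chr11:58199511-58199531 (Igtp), chr11:58214902-58214922 (Irgm2), chr11:48992314-48992334 (Tgtp1), chr11:49064273-49064293 (Tgtp2) and chr11:48927248-48927268 (Gm12185). Other chromosome 11 genes of the family lacked it. Ifi47 held neither core in its window, Irgm1 held no GAS core, and Gm12250 held a GAS core 61 bases before the start between ISRE cores at 91 and 46 bases. This spacing was chosen after the sequences were seen. It occurred in 5 of the 32851 windows (0.0152%), all of them in these 5 genes, which are paralogs and so are not independent of each other.

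With the extract, 3 of the 10 genes rose: Gbp8 by 20.1-fold, Igtp by 2.71-fold and Irgm1 by 2.36-fold. None fell. In edgeR's quasi-likelihood test, with a Benjamini-Hochberg adjusted p under 0.05 over 16196 genes, 3.97% of all genes were called higher and 0.963% lower. An unadjusted p under 0.05 was reached by 6 of the 10, against 28.6% of all genes. The count was 5 with library totals as the only scaling (5.11% of all genes called higher) and 5 with DESeq2 (11.2% called higher and 8.11% lower), with Gbp4 and Gbp5 added. In 8 of the 10 both MHE libraries stood above both PBS libraries, against 33.1% of all genes tested, and Gbp2 and Gbp6 were the exceptions. The median log2 fold change was 1.06 over the 10 genes and -0.02 over all genes tested. In bulk RNA, more cells of a type and more RNA per cell cannot be told apart.

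**Figure D1:**
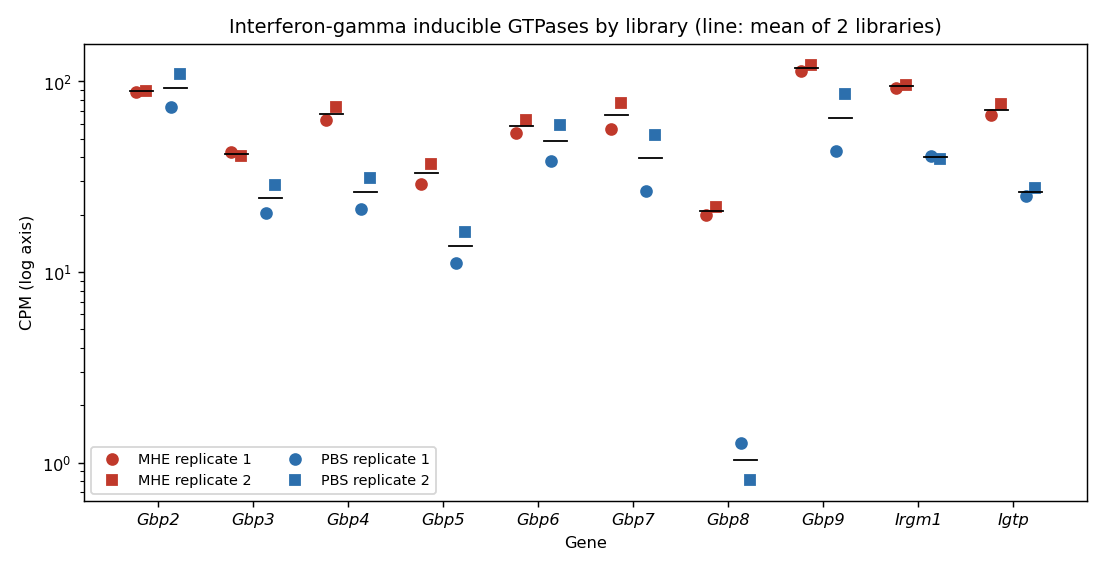
CPM on a log axis for each of the 10 genes, with MHE libraries (red) left of PBS libraries (blue), circles for replicate 1, squares for replicate 2 and a line at the mean of 2 libraries. Gbp8 stands at 19.9 and 22.0 CPM with MHE and at 1.26 and 0.811 CPM with PBS, while the groups overlap for Gbp2 and Gbp6.

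Both IRGM genes among the 10 rose, with replicates close together in each group. Irgm1, a regulator of IRG effectors tied to autophagy and mitochondria, had 92.5 and 96.3 CPM in MHE libraries, against 40.8 and 39.1 CPM in PBS libraries. The groups did not overlap, and the log2 fold change was 1.24 ± 0.19 (SE, adjusted p = 0.0384). Igtp, also called Irgm3, a regulator found at the endoplasmic reticulum and on lipid droplets, had 66.4 and 76.1 CPM in MHE libraries, against 24.9 and 27.6 CPM in PBS libraries. Both MHE values were above both PBS values, with a log2 fold change of 1.44 ± 0.20 (adjusted p = 0.033). Of the exon bases of Igtp in the GENCODE M21 annotation, 8.01% also lie in an exon of a transcript assigned to Irgm2, and 11.8% of its 50-base stretches occur there. For Irgm1 the share of 50-base stretches found in other genes was 0.31%.

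Gbp8 had the largest change among the 10. It had 660 and 627 counts (19.9 and 22.0 CPM) in MHE libraries, against 35 and 24 counts (1.26 and 0.811 CPM) in PBS libraries. The low values were thus near 1 CPM in both PBS libraries and the groups were far apart, with a log2 fold change of 4.33 ± 0.34 (95% interval 3.47 to 5.20, adjusted p = 0.0192). By fold change it ranked 253 among the 16196 genes tested, counted from the highest. Its chromosome 5 neighbours had smaller fold changes, and 18.1% of its 50-base stretches occur in other genes, with Gbp11 (7.37%) the largest partner. Its exons share 61 bases (1.77%) with those of Gbp4 and Gbp9 in GENCODE M21.

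The other chromosome 5 genes did not pass. Gbp4, which restrains IRF7 signalling in mice, had 62.6 and 73.1 CPM in MHE libraries, against 21.4 and 31.1 CPM in PBS libraries. The groups were apart, with a log2 fold change of 1.37 ± 0.26 at an adjusted p of 0.0522. Leaving out either PBS library brought it past the threshold, at 1.11 without replicate 1 and 1.67 without replicate 2. Gbp9, which is recruited to parasite vacuoles in mouse cells, had 113 and 122 CPM in MHE libraries, against 43.0 and 85.5 CPM in PBS libraries. PBS replicate 2 lay nearer to both MHE libraries than to PBS replicate 1, and the log2 fold change was 0.87 ± 0.37 (adjusted p = 0.194). Gbp9 had 1.46 without PBS replicate 2 and 0.44 without PBS replicate 1.

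Gbp6, recruited to parasite vacuoles in the same way, had 53.5 and 62.8 CPM in MHE libraries, against 38.2 and 59.0 CPM in PBS libraries. The groups overlapped, and the log2 fold change of 0.26 had a 95% interval of -0.44 to 0.96 (adjusted p = 0.566); without PBS replicate 1 it was -0.038. Gbp6 is also the member whose counts are least its own. Of its 50-base stretches, 70.7% occur in other genes, most of them in a gene model that overlaps 29% of its exon bases on the same strand, and 84.1% of those of Gbp10 are likewise shared, chiefly with Gbp6 (73.3%). Gbp6 and Gbp10 are therefore uncertain as separate genes.

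Of the chromosome 3 genes none passed, and they ran from a clear separation to none. Gbp5, a prenylated GBP that promotes inflammasome assembly in mouse macrophages, had 28.9 and 36.9 CPM in MHE libraries, against 11.1 and 16.3 CPM in PBS libraries. Its groups were apart, with a log2 fold change of 1.26 ± 0.28 at an adjusted p of 0.0688. It had 1.57 without PBS replicate 2 and 1.00 without PBS replicate 1. Gbp3, another GBP recruited to parasite vacuoles, had 42.8 and 40.4 CPM in MHE libraries, against 20.4 and 28.6 CPM in PBS libraries. The groups were again apart, with 0.77 ± 0.24 at an adjusted p of 0.122. Gbp3 had 1.04 without PBS replicate 2 and 0.53 without PBS replicate 1.

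Gbp7, linked in mice to assembly of the phagocyte oxidase, had 56.3 and 77.2 CPM in MHE libraries, against 26.8 and 52.2 CPM in PBS libraries. The groups did not overlap, but the nearest values were close, and the log2 fold change was 0.76 ± 0.38 (adjusted p = 0.255). It had 1.33 without PBS replicate 2 and 0.34 without PBS replicate 1. Gbp2, a prenylated GBP that acts against the parasite Toxoplasma in mice, had 88.2 and 89.3 CPM in MHE libraries, against 73.9 and 110 CPM in PBS libraries. Both MHE values lay between the PBS values. Its log2 fold change was -0.05 (95% interval -0.72 to 0.61, adjusted p = 0.913), and it turned to 0.13 with library totals as the only scaling and to 0.27 without PBS replicate 2.

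**Figure D2:**
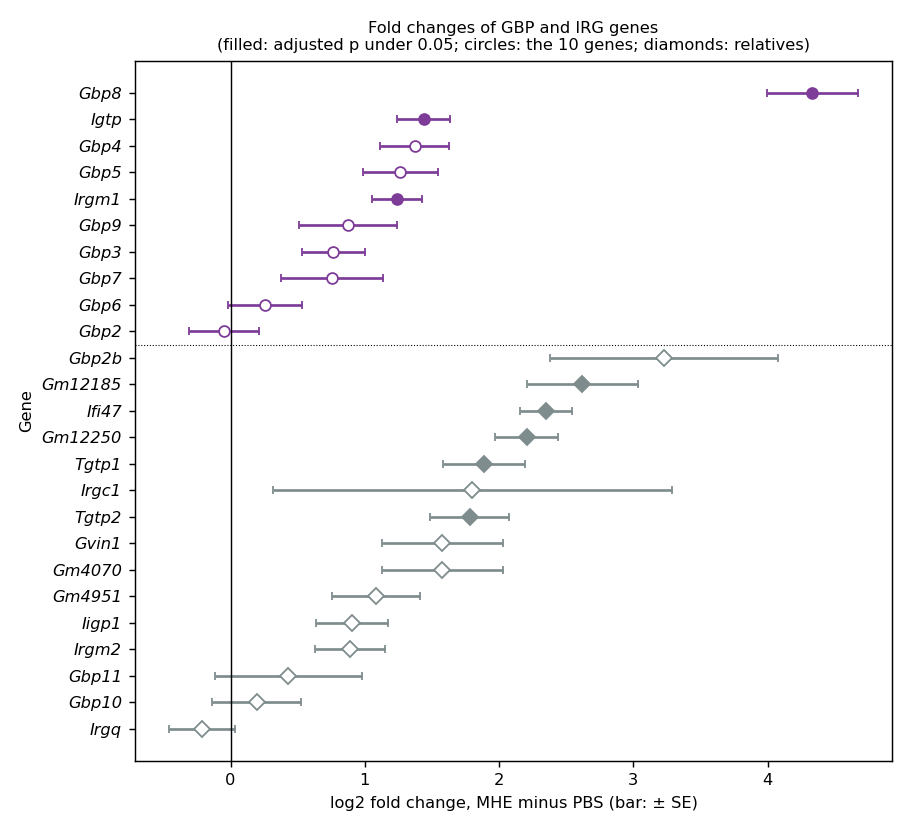
Log2 fold changes (MHE minus PBS) with SE bars for the 10 genes (circles, above the dotted line) and 15 relatives (diamonds), each sorted by value, filled where the adjusted p was under 0.05. Gbp8 (4.33) stands apart from Igtp (1.44) and Irgm1 (1.24), and Gbp2 (-0.05) lies near 0.

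The calls rested on both MHE libraries. Without MHE replicate 1 none of the 10 passed edgeR's test, with Gbp8, Irgm1 and Igtp at 4.42, 1.28 and 1.55, and without MHE replicate 2 none did, with 4.27, 1.22 and 1.35. In each case 5 of the 10 had an unadjusted p under 0.05, and no gene of the whole table passed (0% called higher), while 2352 and 2596 genes had an unadjusted p under 0.05. With PBS replicate 1 left out, 4 passed (10.5% of all genes called higher), and with PBS replicate 2 left out, 8 did (7.45%).

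Levels per length put the genes in another order than fold changes do. The annotation used for counting is not given, so the order between genes depends on the exon lengths assumed here. Per kilobase of exon (union of exons in GENCODE M21), Gbp2 and Igtp were the most abundant with the extract, at 35.3 ± 0.320 and 35.2 ± 3.37 CPM per kb (mean ± SD, n = 2), and could not be told apart. Gbp9 followed at 22.7 ± 1.30 and Irgm1 at 16.2 ± 0.461 CPM per kb. Gbp3 and Gbp7, at 12.8 ± 0.518 and 11.9 ± 2.63 CPM per kb, did not differ beyond their spread, nor did Gbp6 and Gbp4 (9.77 ± 1.11 and 9.06 ± 0.989). Gbp8 and Gbp5 were the lowest, at 6.08 ± 0.440 and 4.96 ± 0.853 CPM per kb.

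With saline, Gbp2 led at 36.5 ± 10.2 CPM per kb, Igtp and Gbp9 followed at 13.0 ± 0.945 and 12.4 ± 5.81, Gbp5 stood at 2.06 ± 0.551, and Gbp8 came last at 0.301 ± 0.0929. Gbp6, Gbp3, Gbp7, Irgm1 and Gbp4 lay between 3.50 and 8.17 CPM per kb. Gbp2 thus made up 22.4% and 20.7% of the summed CPM per kb of the 10 genes in MHE libraries, against 37.0% and 37.9% in PBS libraries. Igtp made up 21.0% and 21.9% in MHE libraries, against 15.5% and 11.8% in PBS libraries. Gbp8 made up 3.69% and 3.72% in MHE libraries, against 0.462% and 0.204% in PBS libraries. These shares did not overlap between the groups, nor did those of Gbp4, Gbp5, Gbp6 and Irgm1. Those of Gbp3, Gbp7 and Gbp9 overlapped. By CPM, the groups did not overlap for 62% of all genes tested, either direction counted. A share depends on the other genes too, and the mean CPM of Gbp2 itself was 88.7 with MHE and 91.9 with PBS. With 2 libraries a group an exact two-sided permutation test cannot give a p under 0.333, so the differences in share were not tested further.

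Within both groups, replicate 2 was the higher library for most of the genes. The CPM was higher in MHE replicate 2 than in MHE replicate 1 in 9 of the 10, by a median of 1.13-fold, against 50.4% of all genes tested, and Gbp3 was the exception. In 8 of the 10 the CPM was higher in PBS replicate 2 than in PBS replicate 1, by a median of 1.46-fold over the 10, against 48.7% of all genes tested. Irgm1 and Gbp8 were the exceptions. T cell markers ran the other way, with a summed level of 15.3 CPM in PBS replicate 2 and 46.0 CPM in PBS replicate 1, and B cell markers likewise, with 5.98 and 98.3 CPM. Endothelial and adipocyte markers were higher in PBS replicate 2, at 1349 against 737 CPM and 32894 against 23587 CPM. Progenitor sums were alike (2325 against 2303 CPM), and the other marker lists were lower there. In MHE replicate 2, macrophage markers (2086 against 1659 CPM) and progenitor markers (2852 against 1077 CPM) were higher. Endothelial sums were alike in that pair (729 against 720 CPM), and the other marker lists were lower, T and B cell markers among them. The part of these marker differences in the GTPase values was not tested.

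Relatives outside the 10 were also called. Of 15 other GBP, IRG and large inducible GTPase genes tested, 5 rose and none fell (4.93% of all genes were called in either direction), with a median log2 fold change of 1.58. DESeq2 called 8, as did edgeR with PBS replicate 2 left out. The effector Ifi47, also called Irgd, had 118 ± 0.495 CPM with MHE and 23.1 ± 0.460 CPM with PBS (n = 2 each), a log2 fold change of 2.35 ± 0.19 (adjusted p = 0.02). Gm12250, also called Irgb10, which acts on bacterial membranes in mice, had 2.20 ± 0.23, Gm12185 2.62 ± 0.41 and the effector Tgtp1, also called Irgb6, 1.89 ± 0.31. Tgtp2 rose as well (1.78 ± 0.29, named outside the rule for named genes). It shares 86.6% of its 50-base stretches with other genes, nearly all with Tgtp1, so the pair is uncertain as separate genes. Tgtp1 and Tgtp2 both count among the 5 that rose.

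The other relatives, named after their values were seen, varied more. Gbp2b, the chromosome 3 neighbour of Gbp2, had 361 and 66 counts in MHE libraries, against 22 and 18 counts in PBS libraries, with a log2 fold change of 3.23 ± 0.85 that did not pass (adjusted p = 0.0937). The MHE libraries were themselves far apart. Irgm2, the third IRGM regulator, had 0.89 ± 0.26 (adjusted p = 0.113). The large inducible GTPases Gvin1 and Gm4070 had the same counts as each other in every library, 26211 and 35534 with MHE and 6673 and 13060 with PBS. Gm4070 shares 97.8% of its 50-base stretches with other genes, 95% with Gvin1, so these are one measurement. Both are counted among the 15 relatives, and their shared log2 fold change of 1.58 is the median given for that list.

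Upstream of the GTPases, the cytokine's own transcript was barely counted. Ifng had 7 and 23 counts in MHE libraries, against 3 and 8 counts in PBS libraries, and was left out by the filter on low counts. Without that filter its log2 fold change was 1.41 ± 1.23 (adjusted p = 0.528). The MHE and PBS values overlapped, and no difference was detectable at this depth. Of 12 genes for cytokines, receptors and factors that drive its production, 5 rose and none fell, with a median of 2.99. An unadjusted p under 0.05 was reached by 11 of them. DESeq2 called 10 of 11, and edgeR called 10 with PBS replicate 1 left out and 9 with PBS replicate 2 left out. Eomes, a factor of cytotoxic lymphocytes, rose by 4.37 on the log2 scale, Il2rb, the shared IL-2 and IL-15 receptor chain, by 3.60, and Il18r1, the IL-18 receptor, by 3.03. Stat4, which relays IL-12, had 4.46 ± 0.62 (5.52 with PBS replicate 1 left out, 3.85 with PBS replicate 2 left out). The fifth was Tbx21, the T-bet gene (3.05 ± 0.44, named outside the rule). Eomes is also among the NK cell markers.

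Neither receptor chain passed the test, and the transcription factor genes Irf1 and Irf8 rose. Ifngr1, the ligand-binding chain, had 333 ± 17.2 CPM with MHE and 382 ± 23.7 CPM with PBS (log2 fold change -0.20 ± 0.26, adjusted p = 0.64), and Ifngr2 had 0.30 ± 0.21 (adjusted p = 0.386). Irf1 had 140 and 147 CPM in MHE libraries, against 51.1 and 61.7 CPM in PBS libraries, and rose by 1.35 ± 0.22 on the log2 scale (adjusted p = 0.0424). Irf8, a factor of myeloid and B cells, rose by 2.51 ± 0.40. Usp18, a brake on interferon signalling, had 1.59 ± 0.30 (adjusted p = 0.0514), with 1.31 without PBS replicate 1 and 1.92 without PBS replicate 2. In all 3 of 17 signalling genes tested rose and none fell, with a median of 1.00, and 13 had an unadjusted p under 0.05. The count was 6 with library totals, 12 with DESeq2, 9 with PBS replicate 1 left out and 7 with PBS replicate 2 left out.

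**Figure D3:**
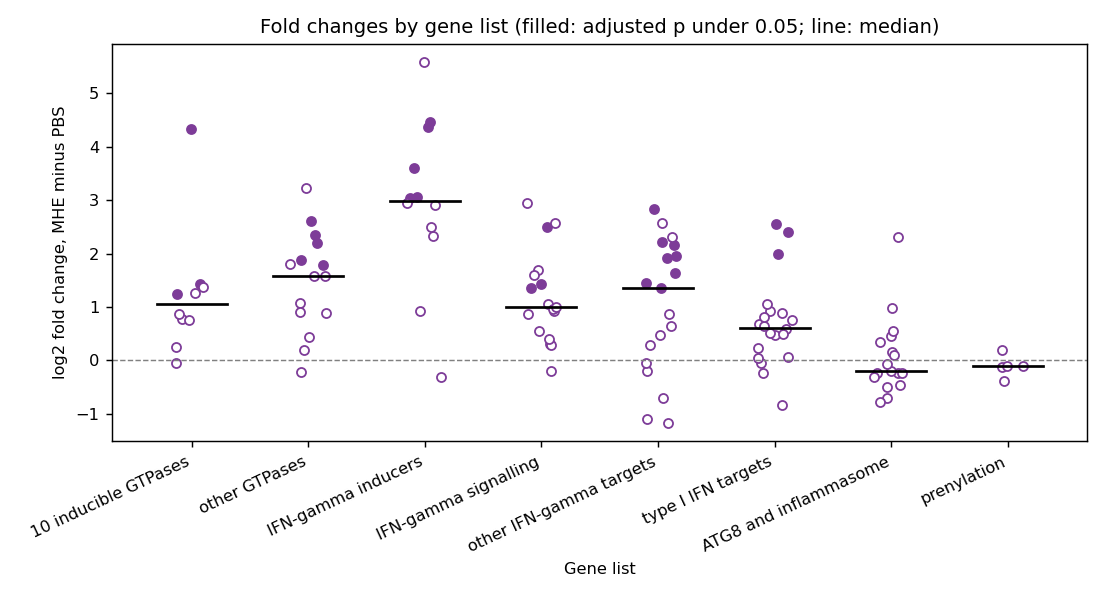
Log2 fold change (MHE minus PBS) of each tested gene by list, filled where the adjusted p was under 0.05, with a line at the median. The 10 GTPases have a median of 1.06, between the type I interferon targets (0.61) and the other interferon-gamma targets (1.35), and the inducers of interferon-gamma lie highest (2.99).

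Other known targets of interferon-gamma were also split. Of 19 tested, 8 rose and none fell, with a median of 1.35 and a range of -1.18 to 2.84. Nlrc5, the transactivator of MHC class I, rose by 2.15 ± 0.21, the peptide transporter gene Tap1 by 1.95 ± 0.20, the adhesion molecule Icam1 by 1.91 ± 0.20 and Ciita, the transactivator of MHC class II, by 2.84 ± 0.35. The chemokine Cxcl9, named after its value was seen, had 65.6 and 65.1 CPM in MHE libraries, against 51.6 and 98.7 CPM in PBS libraries. As with Gbp2, both MHE values lay between the PBS values, and its log2 fold change was -0.20 ± 0.34 (adjusted p = 0.729). Of 20 genes known mainly as type I interferon targets, 3 rose and none fell (DESeq2 called 4 higher and 1 lower), with a median of 0.61. The 3 were Oas3 (2.55 ± 0.28), an RNA-sensing synthetase, Zbp1 (1.99 ± 0.23), a nucleic acid sensor, and the antiviral GTPase Mx1 (2.41 ± 0.36). Rsad2, the viperin gene, had -0.84 ± 0.21 at an adjusted p of 0.082. Irf1 and Socs1 stand in both the signalling and the target list. Aim2 stands in both the target list and the list of partners, and Fcgr1 is also among the macrophage markers.

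Partners of these GTPases gave no call. GBPs and IRGs reach vacuoles with the help of the ATG8 conjugation system, and GBPs feed into inflammasomes. Of 17 such genes none passed edgeR's test (3 had an unadjusted p under 0.05, and DESeq2 called 1 higher and 1 lower), with a median of -0.19. The DNA sensor Aim2 had 2.32 ± 0.63 (adjusted p = 0.0981), with 3.53 without PBS replicate 1 and 1.67 without PBS replicate 2. Gsdmd, the pore-forming gasdermin D, had 0.98 ± 0.36 (adjusted p = 0.156), with 1.51 without PBS replicate 1. The ATG8 genes Gabarapl1 and Map1lc3a had -0.71 ± 0.25 and -0.77 ± 0.33 (adjusted p = 0.153 and 0.204). Of the 5 genes of CaaX prenylation, the lipid attachment that GBP2 and GBP5 need for membranes, none passed (none had an unadjusted p under 0.05, and DESeq2 called none). Fntb, Fnta, Rce1 and Icmt had -0.39, -0.11, -0.11 and 0.19, and the list's median of -0.11 turned to 0.051 with library totals as the only scaling and to 0.027 without MHE replicate 2.

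Many markers of lymphoid cells rose with the extract. The 10 GTPases summed to 624 and 697 CPM in MHE libraries, against 302 and 450 CPM in PBS libraries, a ratio of means of 1.76. Summed T cell markers (11 of 12 genes matched) stood at 1027 and 763 CPM in MHE libraries, against 46.0 and 15.3 CPM in PBS libraries, a ratio of 29.2, and 10 of 11 rose. Summed B cell markers (8 genes) stood at 1860 and 1471 CPM in MHE libraries, against 98.3 and 5.98 CPM in PBS libraries. All 8 had an unadjusted p under 0.05 and 3 of 8 rose, while DESeq2 called 8, as did edgeR with either PBS library left out. Without the filter on low counts edgeR called 1. Summed NK cell markers (8 genes) stood at 102 and 96.7 CPM in MHE libraries, against 24.0 and 11.4 CPM in PBS libraries, and 2 of 8 rose. DESeq2 called 5, and edgeR called 7 with PBS replicate 1 left out and 4 with PBS replicate 2 left out. Among 7 dendritic cell markers 4 rose, with sums of 160 and 118 CPM in MHE libraries, against 131 and 47.1 CPM in PBS libraries. Much of the PBS sums was Itgax, with 17.5 and 28.2 CPM in MHE libraries, against 105 and 19.4 CPM in PBS libraries. Its log2 fold change was -1.45, and it did not pass edgeR's test. Clec9a (1.22) and Zbtb46 (0.13) did not pass either. No marker of these 4 lists was at 0 in any library.

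Lymph node stroma and venule markers summed to 813 and 478 CPM in MHE libraries, against 143 and 14.5 CPM in PBS libraries, and 3 of 5 tested rose (5 with either PBS library left out). Glycam1 had 2395 and 801 counts in MHE libraries, against 2 and 0 counts in PBS libraries, with a log2 fold change of 10.3 (edgeR, adjusted p = 0.0212). Ccl21a made up much of the sums, at 630 and 375 CPM in MHE libraries, against 124 and 1.22 CPM in PBS libraries. It did not pass edgeR's test (adjusted p = 0.319). Madcam1 was at 0 in PBS replicate 1 and Ccl19 at 0 in every library. Macrophage markers summed to 1659 and 2086 CPM in MHE libraries, against 2975 and 1224 CPM in PBS libraries. They overlapped between the groups, and none of the 8 passed edgeR's test (none had an unadjusted p under 0.05, and DESeq2 called none). With PBS replicate 2 left out, 1 was called lower. Endothelial markers summed to 720 and 729 CPM in MHE libraries, against 737 and 1349 CPM in PBS libraries. Of 6 endothelial markers none passed edgeR's test (none had an unadjusted p under 0.05, and DESeq2 called none), but 3 were called lower with PBS replicate 1 left out, where 5.99% of all genes were. Adipocyte markers summed to 19941 and 11432 CPM in MHE libraries, against 23587 and 32894 CPM in PBS libraries. Of 8 adipocyte markers, Lep fell, and DESeq2 called 3 lower. Progenitor markers summed to 1077 and 2852 CPM in MHE libraries, against 2303 and 2325 CPM in PBS libraries. Col1a1 alone had 73.4 and 1339 CPM in MHE libraries, against 241 and 787 CPM in PBS libraries. Dcn had 537 and 918 CPM with MHE, against 1515 and 852 CPM with PBS. Of 8 progenitor markers none passed edgeR's test (2 had an unadjusted p under 0.05, and DESeq2 called 1 higher and 1 lower). With PBS replicate 1 left out, 1 was called lower. No marker or pathway list had a call with either MHE library left out. The part of these cell type differences in the GTPase values was not tested.

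**Figure D4:**
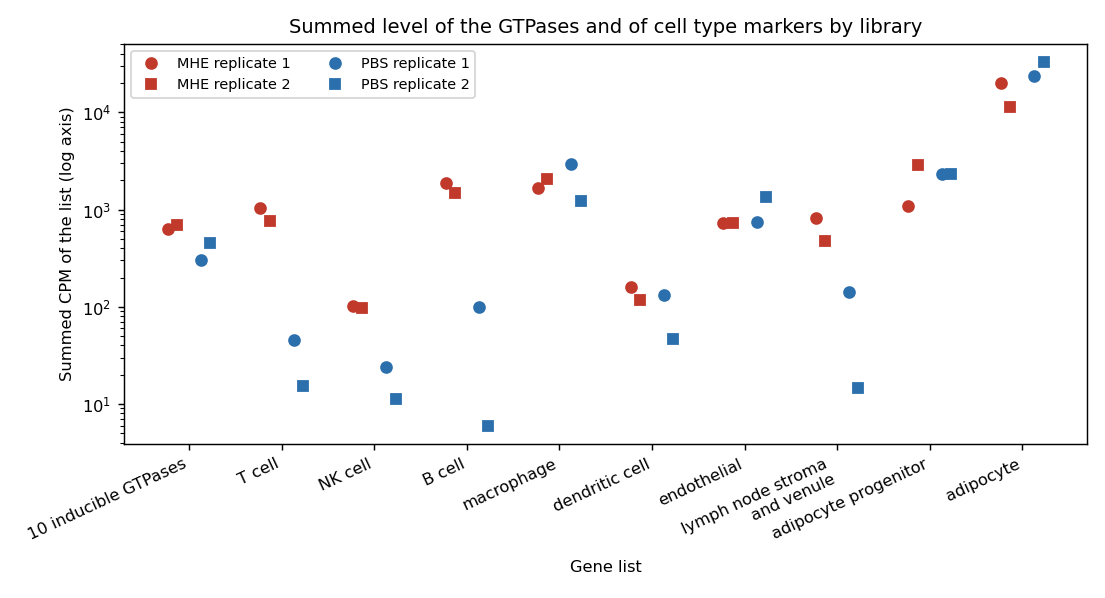
Summed CPM on a log axis of the 10 GTPases and of each cell type marker list by library, with MHE libraries (red) left of PBS libraries (blue). The GTPase sums lie at 624 and 697 CPM with MHE and 302 and 450 CPM with PBS, while the T cell sums lie at 1027 and 763 CPM with MHE and 46.0 and 15.3 CPM with PBS.

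The genes outside the 10 whose log2 CPM profile over the 4 libraries lay nearest to the median profile of the GTPases were Zfp114, Atp10d, Atf7ip, Ep400 and Etnk1, with root mean square differences of 0.033 to 0.052 on the log2 scale. None of these 5 passed edgeR's test (adjusted p 0.0814 to 0.328; 4 of them had an unadjusted p under 0.05). DESeq2 called Atp10d, Atf7ip, Ep400 and Etnk1. The profile they were picked to match already separated the groups, so their p-values and calls follow in part from the choice. Zfp114 was near the floor, with 14 and 14 counts in MHE libraries, against 4 and 7 counts in PBS libraries. Gbp5 was the member nearest to the median profile (0.11) and Gbp8 the farthest (1.65).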

How the data were processed

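Read counts from 4 libraries of mouse inguinal stromal vascular fraction were used, 2 per treatment. The authors deposited raw counts as whole numbers by symbol. Build mm10 and the tools TopHat2, limma and edgeR are named in the submitters' processing notes. The counter, its annotation and its use of strand: not given in the sources used here. Reads of near-identical or overlapping genes may therefore be divided in ways that are unknown.

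Genes were filtered with filterByExpr (minimum count 10, minimum total 15), scaled with TMM factors and tested with edgeR 4.0.16 (R 4.3.3; robust quasi-likelihood test, Benjamini-Hochberg over 16196 genes, threshold 0.05). The scripts were tested on simulated data, where 4.89% of 2-fold, 55.7% of 4-fold and 87.5% of 16-fold changes were recovered. Unchanged genes made up 14.1% of the 1398 calls there, more than the threshold of 0.05 allows for. Most 2-fold changes were missed, so a gene that did not pass is not shown to be unchanged. Log2 fold changes are MHE minus PBS, and SE is the log2 fold change over the square root of F. The biological coefficient of variation was 33.6%. Alternatives were DESeq2 1.42.0, RLE factors, library totals, no filter on low counts, a stricter one (at least 1 CPM in 2 libraries and a total of 50), a replicate block, and leaving out single libraries. Titles give biological replicates without naming animals, so the p-values reflect variation between libraries, and every pair of libraries differed by more than sampling noise.

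Exon lengths, exon overlaps and shared 50-base stretches come from GENCODE M21 (GRCm38), and positions and promoters from RefSeq (GRCm38.p6). The members and lists were chosen with earlier results of these data known. The rule for named genes took all 10 members, up to 4 genes of each pathway list with the smallest p, Ifng, Ifngr1, Ifngr2 and Irf1, and the 5 genes nearest in profile, leaving out provisional symbols there. One gene that the rule names is not reported here.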

Additional observations from a re-analysis of the deposited data

How the results depend on the processing

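Over the 10 alternatives Irgm1, Igtp and Gbp8 kept a positive direction, and their calls were lost when either MHE library was left out. Of the 10 genes 3 were called higher, and this became 5 with library totals, 5 with DESeq2 and 5 with the replicate block (3.54% of all genes called higher), and 0 to 8 with single libraries left out. Over all genes 799 were called, against 2951 with DESeq2, 764 with the replicate block and 0 to 2750 with single libraries left out. The median log2 fold change of the 10 genes ranged from 0.76 to 1.39 with single libraries left out. Library totals moved the median of all genes by 0.16, and changes under that setting are relative to it. Directions turned with library totals for Gbp2 (0.13), Fnta (0.056), Rce1 (0.051) and the prenylation median (0.051). With single libraries left out, the ranges were -0.33 to 0.27 for Gbp2, -0.038 to 0.62 for Gbp6, -0.24 to 0.027 for Fnta, -0.28 to 0.061 for Rce1, -0.067 to 0.48 for Icmt and -0.24 to 0.027 for the prenylation median. The cause was not tested. Same-numbered libraries deviated together only weakly (r = 0.12 across genes, which are not independent replicates), and nothing in the labels says that a number marks a pair. Under the replicate block, Gm12185 (2.64, adjusted p = 0.056), Stat4 (4.58, adjusted p = 0.0584) and Mx1 (2.45, adjusted p = 0.0502) did not pass. Where 1 library was left out, the lone library of that group was assumed to vary like the other group. With 2 libraries per group, no difference was detectable for Ifng at 3 to 23 counts per library.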
